A study of Mus musculus with 24 samples.

Results

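The cell cycle and proliferation genes described here are 42 genes whose products carry a cell through division. They comprise the proliferation antigen Mki67, the D-type cyclins and their kinases, inhibitors of cyclin-dependent kinases (CDKs), G1/S regulators, replication factors, mitotic kinases and cyclins, and proteins of the chromosomes, spindle and checkpoint. The genes were chosen by name and not by a rule on their measured values. Earlier results of these data were known when they were chosen. Of the 42, 40 had a probe matched by accession, among 18539 gene symbols matched on the array, and Ccnd1 and Rrm2 had none. Each gene was read on its brightest probe, which was the same probe in aorta and in muscle for all 40, and 15 of them had several probes.

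RNA came from endothelial cells of the aorta and of leg skeletal muscle, sorted as live cells that carried CD105 (endoglin) and lacked the leukocyte antigen CD45, and was amplified, labelled with Cy3 and hybridised to 24 single-colour Agilent whole mouse genome arrays. WT mice were C57BL/6 and KO mice were galectin-3 (-/-), which lack a working Lgals3 gene in every cell. All were males, given a high-fat diet (HFD, 60% of calories from fat) or chow (12%) for 8 weeks. Tissue, genotype and diet made 8 groups of 3 arrays, 1 array from each of 3 independent experiments, and every array held the pooled tissue of several mice. Aorta and muscle of a genotype, diet and experiment came from the same mice, which makes 12 pools. The HFD and chow arrays of a genotype, tissue and experiment were treated as a pair, which gives 6 pairs in each tissue.

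Levels are given as the log2 of a probe's signal over the 75th percentile of its array, so that 0 is that percentile. Levels of different probes were not set against each other. A difference was called when limma's adjusted p (Benjamini-Hochberg over all tested probes) was below 0.05, and errors are standard errors (SE) unless marked SD. Pooled RNA of sorted cells does not tell fewer cells of a type from less RNA per cell.

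The share of spots well above background lay between 59.5% and 75.7% per array. The summed level of the 12 endothelial markers, log2 of their added signals, lay between 7.15 and 8.84 in aorta and between 8.80 and 9.40 in muscle, and no endothelial marker was below background on all arrays. Other cell types were also represented. The 8 fibroblast markers summed to between 8.21 and 9.36 in aorta and between 4.71 and 7.86 in muscle, and the 8 muscle fibre markers to between 0.32 and 2.30 in aorta and between 4.07 and 6.95 in muscle. In 11 of 12 comparisons of a KO with its matching WT array, the Lgals3 probe gave more signal on the KO array, which goes against the label. Where this probe lies relative to the deleted exons is not known here, so WT and KO stand throughout for the libraries labelled so, and no direction between them was checked by the targeted gene. Each slide held the 4 arrays of 1 tissue and 1 experiment, so a slide never held both tissues, and experiment 1 was scanned in 1 session and experiments 2 and 3 in another.

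The cell cycle is driven by cyclins that switch on CDKs in sequence. D-type cyclins with Cdk4 and Cdk6 begin the inactivation of the retinoblastoma protein, which frees E2F factors to switch on genes of the G1/S step and of DNA replication, while inhibitors such as p21 (Cdkn1a), p27 (Cdkn1b), p57 (Cdkn1c) and p15 (Cdkn2b) hold the kinases back. In G2 a later wave of genes, among them the B-type cyclins and the spindle proteins, is switched on through promoters that carry a CHR element (cell cycle genes homology region) and CCAAT boxes bound by NF-Y. Endothelium of adult vessels is largely quiescent, and its turnover is low.

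The promoters of the genes were searched for these elements in the letters of the reference. RefSeq promoters (GRCm38.p6, 250 bases before the start) were given for 34 of the 42 genes, and for 27025 genes in all. Of the 34, 24 (70.6%) held CCAAT on either strand, against 37.5% of all genes, and 15 (44.1%) held it at least 2 times, against 11.5%. The CHR letters TTTGAA were found on either strand in 8 (23.5%), against 18.3% of all genes. The E2F core was searched on either strand as TTCCCGC and with the letters at positions 3 and 4 changed, which gives TTCGCGC as another spelling, TTGCCGC as a further spelling and TTGGCGC as the last. It was found in 11 (32.4%), against 9.01%. CCAAT was present in 12 of 13 mitotic genes (92.3%) and in 8 of 9 replication genes (88.9%), the E2F core in 2 and in 5 of them respectively, and CCAAT in 1 of 5 CDK inhibitors (20%). The CHR letters were in 5 of the 13 mitotic genes (38.5%), namely Cdk1, Ccnb2, Top2a, Kif11 and Cdc20, and in 1 of the 9 replication genes. The 3 mitotic promoters printed below are among those 5, so they do not stand for all mitotic genes. A match is a description of the letters and not a tested site. The promoters of 3 mitotic genes and, for contrast, of the inhibitor Cdkn1a are printed 5′ to 3′ on the strand of the gene, with the CHR letters and the CCAAT boxes of either strand in capitals. Ccnb2 (cyclin B2) lies at chr9:70421555-70421804 on the minus strand and held 1 CHR and 3 CCAAT matches. Top2a (topoisomerase II alpha, which untangles DNA) lies at chr11:99024190-99024439 on the minus strand with 2 CHR and 6 CCAAT matches. Cdk1, the kinase that starts mitosis, lies at chr10:69352913-69353162 on the minus strand with 2 CHR, 3 CCAAT and 2 E2F matches. The first of 2 Cdkn1a promoters, at chr17:29090729-29090978 on the plus strand, held none of the 3 motifs.
Ccnb2: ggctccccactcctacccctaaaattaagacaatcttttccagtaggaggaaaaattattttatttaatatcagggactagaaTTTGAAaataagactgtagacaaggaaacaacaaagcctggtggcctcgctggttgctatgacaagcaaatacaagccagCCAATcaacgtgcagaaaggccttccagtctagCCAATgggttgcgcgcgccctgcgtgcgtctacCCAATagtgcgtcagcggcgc
Top2a: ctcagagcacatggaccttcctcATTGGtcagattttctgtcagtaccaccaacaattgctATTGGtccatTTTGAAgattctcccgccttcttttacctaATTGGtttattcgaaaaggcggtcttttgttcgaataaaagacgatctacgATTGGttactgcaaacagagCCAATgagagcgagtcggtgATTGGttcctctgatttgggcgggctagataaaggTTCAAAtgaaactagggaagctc
Cdk1: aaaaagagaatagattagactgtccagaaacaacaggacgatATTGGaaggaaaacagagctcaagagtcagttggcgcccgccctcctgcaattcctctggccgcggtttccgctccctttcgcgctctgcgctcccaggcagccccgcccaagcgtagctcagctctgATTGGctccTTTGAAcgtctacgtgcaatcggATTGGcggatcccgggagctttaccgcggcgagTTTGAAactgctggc
Cdkn1a: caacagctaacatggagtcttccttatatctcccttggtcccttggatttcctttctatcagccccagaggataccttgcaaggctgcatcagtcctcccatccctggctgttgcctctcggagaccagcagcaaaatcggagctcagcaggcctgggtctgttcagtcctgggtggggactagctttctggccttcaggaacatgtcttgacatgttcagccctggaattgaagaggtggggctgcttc

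Most of the genes gave a signal in these sorted cells. In each tissue 33 of the 40 were above background on all 12 arrays. By group, the number above background on all 3 arrays was 36 (WT chow), 38 (WT HFD), 35 (KO chow) and 38 (KO HFD) in aorta, and 35, 36, 35 and 38 in the same order in muscle. Cdkn2a, which encodes the inhibitor p16 and the p53 regulator p19Arf, was above background on 0 of 24 arrays. Cdk6 was above background on 6 of 12 aortic arrays and 11 of 12 muscle arrays. The mitotic genes Aurkb and Top2a were above background on all 12 aortic arrays but on only 7 and 9 muscle arrays, and Cdk1 on 11 aortic and 9 muscle arrays. The filter for testing, which asked for a signal above background on all 3 arrays of 1 or more groups, passed 38 genes in aorta (all but Cdk6 and Cdkn2a of the 40), 39 in muscle and 39 over both tissues.

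The clearest differences lay between the tissues. Of the 39 genes tested over all 24 arrays, 21 (53.8%) differed between aortic and muscle endothelium by limma, beside 46.1% of all 27387 tested probes. In aorta 11 genes were higher, against 16.0% of all probes, and 10 were lower, against 30.1%. At an unadjusted p under 0.05, 23 of 39 differed, against 53.4% of probes. The median change of the genes was -0.13 and that of all probes -0.27. By role, 3 of 5 G1/S genes, 2 of 6 mitotic kinases and cyclins and 3 of 9 chromosome, spindle and checkpoint genes were higher in aorta and none of these was lower, whereas 5 of 9 replication genes and 4 of 5 CDK inhibitors were lower. The called genes ended at an adjusted p of 0.049997 and the others began at 0.0613.

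**Figure D1:**
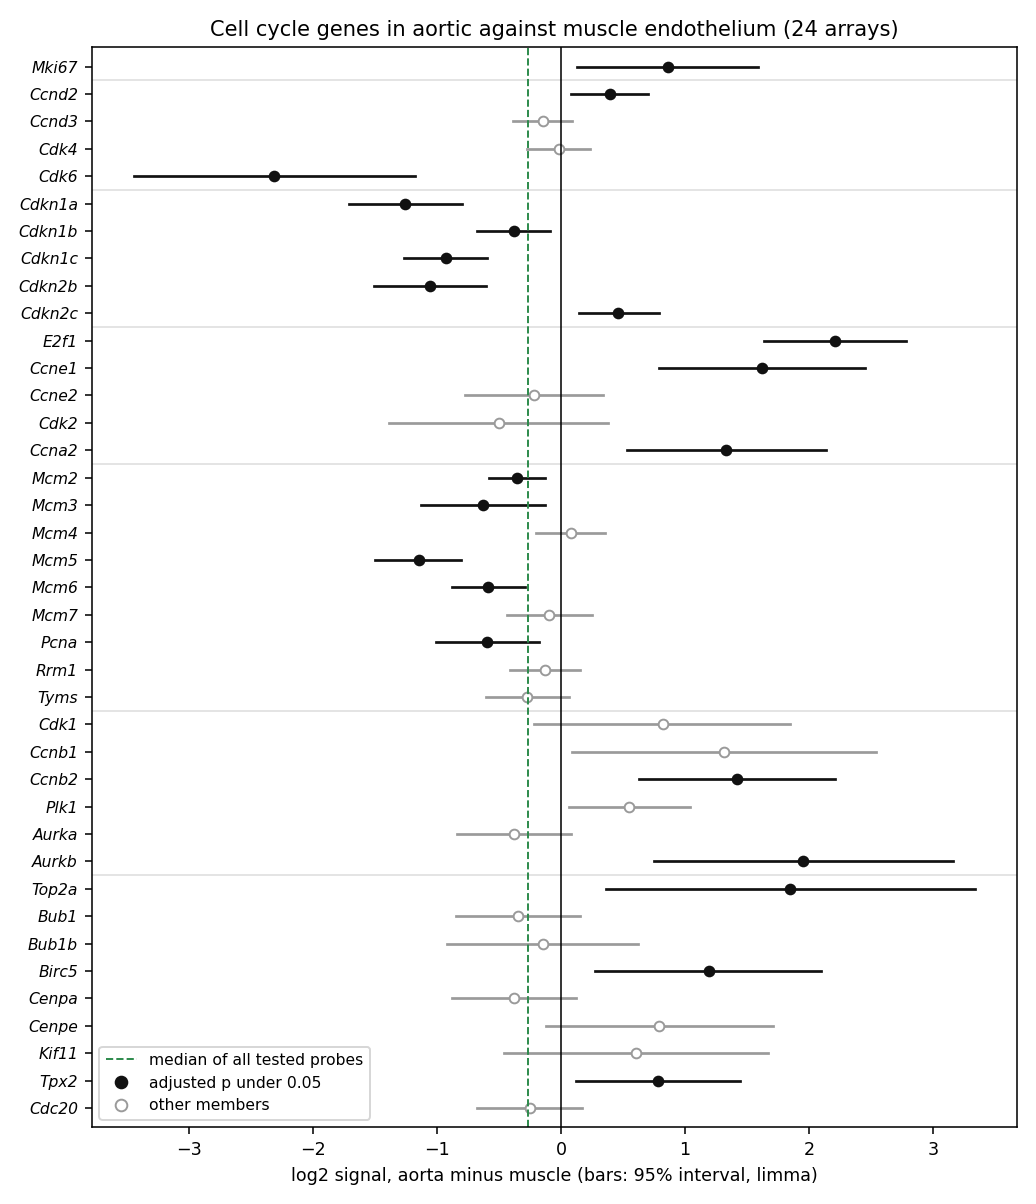
Difference in log2 signal between aorta and muscle for the 39 tested genes, ordered by role from G1 genes at the top to mitotic genes at the bottom, with 95% intervals from limma. Filled points are the 21 called genes, the dashed line is the median of all tested probes (-0.27), and E2f1 stands at 2.21. Cdk6, at -2.32, was above background on 6 of 12 aortic arrays and was tested only because of its muscle signal.

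E2f1, a transcription factor that drives entry into S phase, had the smallest p. Its log2 level was -1.49 to 0.97 (median -0.35) in aorta and -3.47 to -1.13 (median -2.54) in muscle. It was higher in aorta in 12 of 12 pools, and the ranges overlapped only slightly. The difference was 2.21 ± 0.271 (SE, 4.63-fold, adjusted p 2.58e-06, limma). Ccne1, cyclin E1, the partner of Cdk2 at the start of S phase, lay between -1.92 and 0.34 (median -0.77) in aorta and between -4.73 and -0.81 (median -2.35) in muscle. It too was higher in aorta in 12 of 12 pools, by 1.62 ± 0.398 (3.07-fold, adjusted p 0.00275). Ccna2, the cyclin A of S and G2 phases, was higher in 10 of 12 pools, with medians of 0.15 and -1.07 and a range in muscle from -3.31 to 0.44 that enclosed most of that in aorta (-1.72 to 1.15), and differed by 1.33 ± 0.384 (2.52-fold, adjusted p 0.0086). The sister cyclin Ccne2 (-0.22) and Cdk2 (-0.50) did not pass the test.

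Among mitotic genes the higher aortic level came with a wide spread in muscle. Ccnb2 ranged from -1.33 to 1.26 (median -0.11) in aorta and from -4.36 to 0.38 (median -1.61) in muscle. The ranges overlapped, 10 of 12 pools were higher in aorta, and the difference was 1.42 ± 0.376 (2.67-fold, adjusted p 0.00478). Aurkb, the kinase of the chromosomal passenger complex, ranged from -5.05 to -1.82 (median -3.33) in aorta and from -9.01 to -2.88 (median -4.96) in muscle. It was higher in aorta in 10 of 12 pools, with a fitted difference of 1.95 ± 0.574 (adjusted p 0.00957). The muscle range includes 5 arrays not above background, so no fold is given. Top2a differed by 1.85 ± 0.708 (adjusted p 0.0404), with an outlier spot on 1 muscle array left out, and was not called with the pool of mice as a block (adjusted p 0.0954). Its medians were nearly equal, -2.94 in aorta and -2.80 in muscle, and the ranges were -4.60 to -0.66 and -9.19 to -1.54. Top2a was higher in aorta in 8 of 11 pools, and its muscle arrays below background were the WT chow, WT HFD and KO chow arrays of experiment 2.

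Birc5 (survivin, another passenger protein), Tpx2 (a spindle assembly factor that activates Aurora A) and Mki67 were also called, at 1.19, 0.78 and 0.86. With the pool of mice as a block Tpx2 was called (adjusted p 0.0251), and Birc5 (0.0558) and Mki67 (0.0652) were not. Mki67, the antigen present in cycling cells and absent from resting ones, ranged from -2.09 to 1.12 (median -0.24) in aorta and from -3.21 to 0.59 (median -1.29) in muscle. It was higher in aorta in 10 of 12 pools, and its adjusted p of 0.049997 lay at the threshold. Plk1 (0.55, adjusted p 0.0613) and Ccnb1 (1.31, adjusted p 0.0732) missed it. Cdk1 (0.82), Cenpe (0.79) and Kif11 (0.60) were above 0 and not called, and Aurka (-0.38), Bub1 (-0.35), Bub1b (-0.15), Cenpa (-0.38) and Cdc20 (-0.25) were below 0 and not called, so the mitotic genes did not share 1 direction. Bub1 was called lower with the pool as a block (adjusted p 0.0437).

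The CDK inhibitors and the replication genes were mostly lower in aorta. Cdkn1a, whose product p21 is a target of p53 and halts cells in G1, ranged from 2.60 to 5.55 (median 4.25) in aorta and from 4.06 to 6.10 (median 5.51) in muscle. It was lower in aorta in 12 of 12 pools, by -1.26 ± 0.216 (2.39-fold, adjusted p 0.000113). Cdkn1c was lower in aorta in 12 of 12 pools as well, at -0.93 ± 0.158 (adjusted p 9.84e-05), and Cdkn2b in 11 of 12, at -1.06 ± 0.214 (adjusted p 0.00053). Cdkn1b was lower by a smaller step, -0.38 ± 0.141 (adjusted p 0.0322). Cdkn2c, which encodes p18 and binds Cdk4 and Cdk6, was the exception among the tested inhibitors, higher in aorta in 12 of 12 pools at 0.46 ± 0.154 (adjusted p 0.0199).

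Of the replication genes, the helicase subunit Mcm5 was lower in aorta in 12 of 12 pools. Its log2 level ranged from -1.86 to 0.22 in aorta and from 0.01 to 0.94 in muscle, with a difference of -1.15 ± 0.165 (2.23-fold, adjusted p 1.54e-05). Its partners did not all differ: Mcm6 (-0.59), Mcm3 (-0.63) and Mcm2 (-0.36) were called lower, and Mcm4 (0.08) and Mcm7 (-0.10) were not called. Pcna, the sliding clamp of DNA polymerases, was lower in 12 of 12 pools at -0.60 ± 0.199 (adjusted p 0.0197). Rrm1, a subunit of ribonucleotide reductase, was at -0.13 and Tyms, thymidylate synthase, at -0.28, and neither was called, although Tyms was called lower with the pool as a block (adjusted p 0.0385).

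Among the D-type cyclins and their kinases, Cdk6 was called lower in aorta, on a signal that was near background there. It passed the filter in muscle and not in aorta, where no group had it above background on all 3 arrays. Its log2 level ranged from -8.67 to -4.71 (median -6.81) in aorta and from -6.68 to -3.40 (median -4.30) in muscle, lower in aorta in 11 of 12 pools. The fitted difference was -2.32 ± 0.543 (adjusted p 0.0019), but with 6 of 12 aortic arrays not above background its size is not measured, and no fold is given. With only probes above background on every array Cdk6 was not tested. Ccnd2 was higher in aorta at 0.39 ± 0.150 (adjusted p 0.0406) in 11 of 12 pools, and its other probes read 0.22 and -0.0021, neither called. Ccnd3 (-0.15) and Cdk4 (-0.02) did not pass the test.

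**Figure D2:**
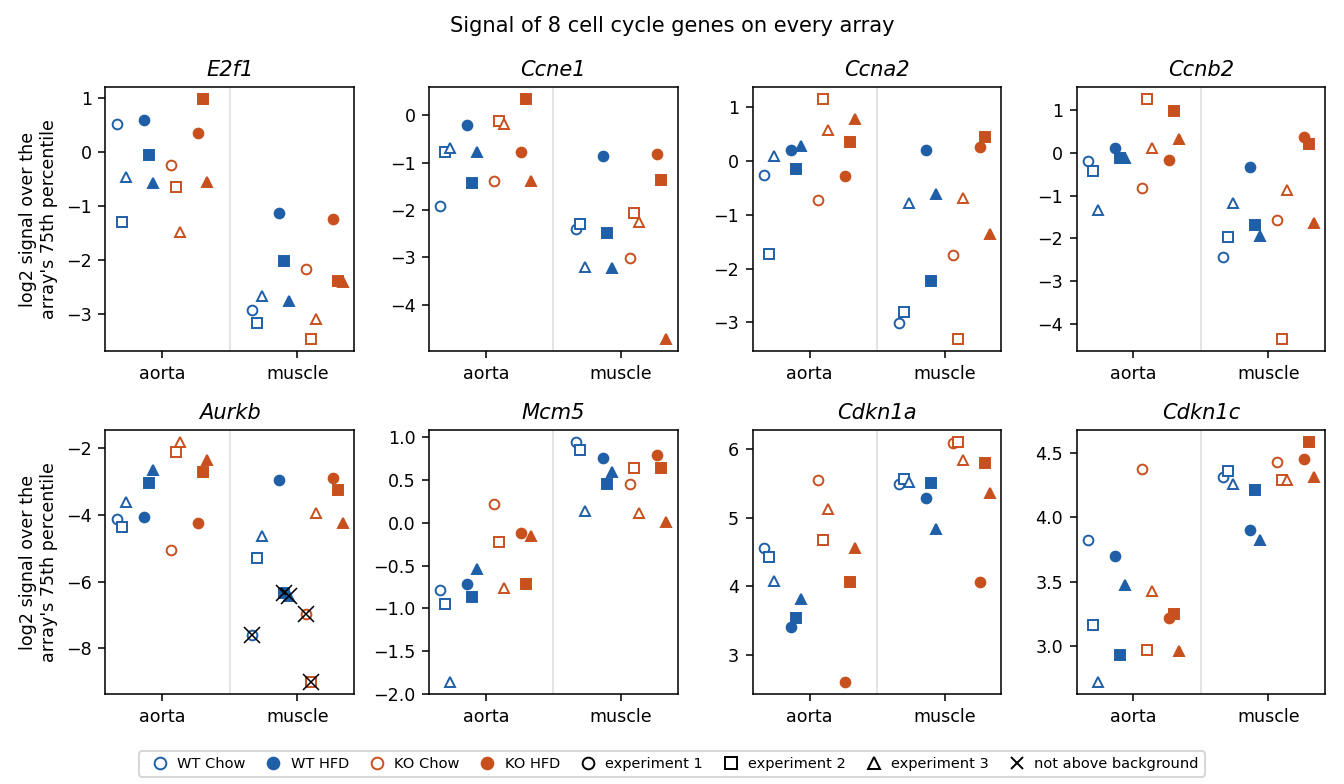
Log2 signal over the 75th percentile of the array for 8 genes on every array, with aorta to the left and muscle to the right in each panel. Colours mark the genotype label, filled symbols HFD, shapes the experiment and crosses arrays on which the probe was not above background; E2f1 and Ccne1 lie higher in aorta and Mcm5, Cdkn1a and Cdkn1c lower, in 12 of 12 pools.

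A rule that used signs alone gave a smaller set. Aorta minus muscle had 1 sign in all 12 pools for 8 of 39 genes (20.5%), beside 21.9% of all probes. They were E2f1, Ccne1 and Cdkn2c upward and Cdkn1a, Cdkn1c, Mcm5, Mcm6 and Pcna downward.

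Several of these calls depended on the fit and on what else varied between the tissues. With the pool of mice as a block 20 genes were called, 18 of them shared with the 21, beside 56.3% of all probes. With the slide as a random block 8 were called, beside 28.2% of probes, namely Cdk6, Cdkn1a, Cdkn1c, Cdkn2b, E2f1, Ccne1, Mcm5 and Mcm6. Within the chow groups alone 13 were called, beside 25.2%. When each experiment was left out in turn, 6 genes were called every time, namely E2f1, Ccne1, Cdkn1a, Cdkn1c, Cdkn2b and Mcm5. The single fits called 32%, 31.2% and 35.6% of all probes. The share of probes called every time was not counted, so the 6 cannot be set against it. All 12 endothelial markers were below 0 in aorta (median -1.06, 11 called lower), all 8 fibroblast markers were called higher (median 3.28) and all 8 muscle fibre markers were called lower (median -6.41). Of the adipocyte markers 4 of 5 were called higher and 1 lower (median 2.28), of the satellite cell markers 4 of 6 lower (median -2.0), and of the smooth muscle and pericyte markers 5 of 8 lower and 1 higher (median -1.1). With the mean of the endothelial markers on each array as a covariate, 0 genes were called by limma, beside 6.5% of probes, and 5 had an unadjusted p under 0.05, beside 23.5%. E2f1 was then at 1.00 (adjusted p 0.172), Cdkn1a at -0.54 (adjusted p 0.393) and Cdk6 at 0.14 (adjusted p 0.937). The endothelial marker level was itself nearly split by tissue, so the tissue and the purity of the sort cannot be told apart by this fit.

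Other genes of the same pathways, from lists of 28 S-phase genes, 40 G2/M genes, 16 pocket protein and E2F genes and 12 p53 targets, were read in the same fit. Of 35 tested G2/M genes, 13 were higher in aorta and 3 lower (median 0.07). The largest were Nuf2 (2.15, a kinetochore subunit), Hmmr (1.88, a spindle-associated hyaluronan receptor), Melk (1.63, a mitotic kinase) and Cenpf (1.60, a kinetochore protein). Of 26 S-phase genes, 4 were higher and 6 lower (median -0.13), with Dtl at 1.79, Chaf1b at -1.28 and the licensing inhibitor Gmnn at -0.99. Of 16 pocket protein and E2F genes, 2 were higher and 7 lower (median -0.0017), with Myc at 1.99, the E2F partner Tfdp1 at 1.01, the pocket protein Rbl1 at -0.94 and the repressor E2f7 at -0.74. Of 12 p53 targets, 3 were higher and 4 lower (median -0.25), so the lower Cdkn1a level was not shared by the whole list: Phlda3 was at 1.60 and Ccng1 at 0.73, and Tnfrsf10b was at -1.16 and Bbc3 at -0.80.

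The study fed mice fat to produce insulin resistant diabetes, and the next comparisons ask which of the genes differed with the diet. None was called by limma in any diet comparison. In muscle over both genotypes 0 of 39 genes passed the adjusted threshold, beside 0.288% of all probes, and 12 had an unadjusted p under 0.05, beside 16.4% of all probes. Of these, 8 were higher on HFD (7.27% of probes) and 4 lower (9.08%). In muscle of WT mice 0 genes (0% of probes) passed and 6 had an unadjusted p under 0.05 (12.1% of probes), and in muscle of KO mice 0 (0.00389%) passed and 8 (8.5%) did so unadjusted. In aorta over both genotypes 0 of 38 genes (0.0309%) passed and 6 (15.1%) did so unadjusted, 4 of them higher on HFD (8.45%) and 2 lower (6.68%). In aorta of WT mice 0 genes (0%) and in aorta of KO mice 0 genes (0%) passed, and 6 (5.76%) and 4 (11.3%) did so unadjusted. The methods' t-test on the 3 ratios of HFD to chow gave, at an unadjusted p under 0.05, 6 genes in WT aorta (4.71% of probes), 1 in KO aorta (6.71%), 5 in WT muscle (8.25%) and 3 in KO muscle (5.01%), and 0 after Benjamini-Hochberg (0% of probes in each).

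The genes nearest to a call were in muscle. They were taken by their p, and the share of all probes whose HFD and chow arrays did not overlap was not counted. Cdkn2b, the inhibitor p15 that blocks Cdk4 and Cdk6, read -0.47, -0.63 and -0.31 on the WT chow arrays and -1.33, -1.50 and -1.23 on the WT HFD arrays. On the KO arrays it read -0.38, -0.76 and -0.67 on chow and -1.39, -1.50 and -1.37 on HFD. The HFD and chow arrays did not overlap in either genotype. Within pairs the difference lay between -1.0 and -0.70 in 6 of 6 pairs, with a mean of -0.85 ± 0.137 (1.80-fold, adjusted p 0.0869). In aorta the mean was -0.46 ± 0.327, with 5 of 6 pairs below 0 and the WT pair of experiment 2 at 0.92.

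Ccnd2, cyclin D2, read 2.20, 2.25 and 2.09 on WT chow and 2.83, 3.33 and 3.21 on WT HFD in muscle. In KO muscle it read 1.54, 1.84 and 2.15 on chow and 2.43, 3.70 and 3.10 on HFD. Every HFD array lay above every chow array of the tissue, and the difference was 1.09 ± 0.188 (2.13-fold, adjusted p 0.0947), from 0.63 to 1.85 within pairs. In aorta Ccnd2 read 2.33, 2.71 and 2.62 on WT chow against 3.04, 3.67 and 3.27 on WT HFD, and 2.15, 2.95 and 2.81 on KO chow against 3.38, 3.31 and 3.11 on KO HFD. There too every HFD array was above every chow array, with a difference of 0.70 ± 0.201 (1.63-fold, adjusted p 0.231). With normexp background correction in place of the processed signal Ccnd2 was called in muscle (adjusted p 0.0359), and with probes above background on every array alone both Ccnd2 and Cdkn2b were called (adjusted p 0.0395 for each).

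Ccnd3, cyclin D3, followed at a smaller size. In muscle it read 2.58, 2.78 and 2.47 on WT chow and 3.32, 3.25 and 3.03 on WT HFD, and 2.51, 2.73 and 2.57 on KO chow and 3.33, 3.31 and 2.99 on KO HFD. Chow and HFD arrays did not overlap, and the difference was 0.60 ± 0.143 (1.51-fold, adjusted p 0.140). In aorta it was 0.37 ± 0.166, above 0 in 6 of 6 pairs, although the arrays of the diets overlapped across experiments. E2f1 was higher on HFD by 0.93 ± 0.254 in muscle (adjusted p 0.169) and by 0.73 ± 0.260 in aorta (adjusted p 0.284). In both tissues 5 of 6 pairs were above 0, and the WT pair of experiment 3 was the exception in each, at -0.09 and -0.12. In KO aorta E2f1 read -0.24, -0.66 and -1.49 on chow and 0.34, 0.97 and -0.57 on HFD, and had the smallest p of the genes there (1.04 ± 0.368, adjusted p 0.416).

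Mcm7, the helicase subunit, was lower on HFD within 6 of 6 muscle pairs. It read 3.72, 3.73 and 2.94 on WT chow and 2.55, 3.04 and 2.33 on WT HFD, and 3.38, 3.42 and 2.64 on KO chow and 2.89, 2.75 and 2.59 on KO HFD. The arrays of experiment 3 were lower than the others on both diets, so the diets overlapped, and the difference over both genotypes was -0.61 ± 0.164 (adjusted p 0.165). The other Mcm genes had differences between 0.0017 and 0.30 over both genotypes in muscle. Mcm7 in aorta was at -0.51 ± 0.191 (adjusted p 0.294).

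Cdkn1a was lower on HFD in 12 of 12 pairs, and its size varied more than its sign. In aorta it read 4.55, 4.42 and 4.07 on WT chow against 3.41, 3.54 and 3.81 on WT HFD, and 5.55, 4.68 and 5.12 on KO chow against 2.60, 4.06 and 4.55 on KO HFD. In muscle it read 5.49, 5.56 and 5.52 on WT chow against 5.28, 5.50 and 4.83 on WT HFD, and 6.09, 6.10 and 5.84 on KO chow against 4.06, 5.80 and 5.36 on KO HFD. The KO pair of experiment 1 had the largest difference in both tissues, -2.95 and -2.04, and the other pairs lay between -1.14 and -0.06. The difference was -1.07 ± 0.358 in aorta (adjusted p 0.264) and -0.63 ± 0.260 in muscle (adjusted p 0.300).

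By sign alone, HFD minus chow pointed 1 way in all 6 aortic pairs for 6 of 38 genes, beside 10.3% of all probes, and in all 6 muscle pairs for 8 of 39 genes, beside 11.3%. In all 12 pairs 4 of 38 genes kept 1 sign, beside 1.75% of probes: Ccnd2, Ccnd3 and Tyms upward and Cdkn1a downward. Aortic and muscle pairs share their mice, so these 12 pairs are not 12 separate experiments. Tyms, which makes the thymidine nucleotide for replication, was higher by as little as 0.01 in 1 muscle pair and 0.12 in 1 aortic pair, and its differences were 0.49 ± 0.186 and 0.35 ± 0.176, with adjusted p of 0.265 and 0.395. In aorta alone Cdkn2c and Pcna were lower in 6 of 6 pairs. In muscle alone Cdk1 was higher and Cdkn1b, Cdkn2b and Mcm7 were lower in 6 of 6 pairs.

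**Figure D3:**
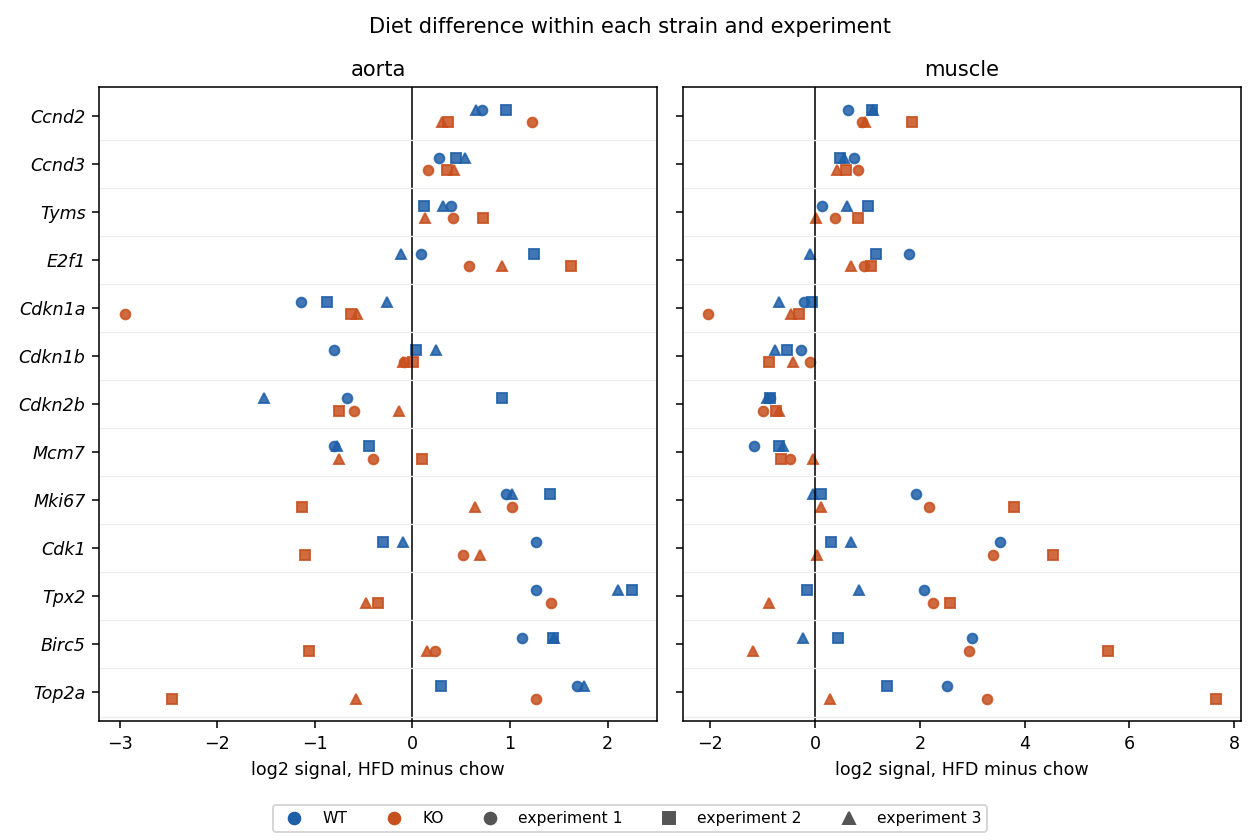
Difference in log2 signal between the HFD and the chow array of each genotype and experiment for 13 genes, with aorta on the left and muscle on the right. Each point is 1 pair, coloured by genotype label and shaped by experiment; Ccnd2, Ccnd3 and Tyms lie to the right of 0 and Cdkn1a to the left in all 12 pairs, while the mitotic genes of muscle spread from below 0 to 7.65.

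The mitotic genes in muscle varied between experiments. Mki67 was higher on HFD by 1.93, 2.17 and 3.80 in the WT and KO pairs of experiment 1 and the KO pair of experiment 2, and read 0.11, -0.04 and 0.11 in the other pairs. Its muscle levels were -1.94, -2.50 and -1.27 on WT chow, -0.01, -2.38 and -1.32 on WT HFD, -1.59, -3.21 and -1.0 on KO chow and 0.58, 0.59 and -0.90 on KO HFD. The difference over both genotypes was 1.35 ± 0.494 (2.54-fold, adjusted p 0.256). The same 3 pairs carried the largest differences of Cdk1 (3.53, 3.40 and 4.55), Aurkb (4.64, 4.08 and 5.74), Ccnb2 (2.11, 1.96 and 4.58), Birc5 (3.00, 2.94 and 5.59) and Top2a (2.51, 3.28 and 7.65). In the other pairs Birc5 read 0.43, -0.24 and -1.18 and Aurkb -1.05, -1.81 and -0.32. Part of the spread came from chow arrays at background: the chow arrays of Aurkb and Cdk1 in those 3 pairs were not above it, nor was the KO chow array of experiment 2 for Top2a, so the size of these differences is not measured on the chow side.

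Markers of other cells were high on some of the same muscle arrays, most of all in experiment 1. As a median deviation from each gene's mean over the tissue, the 15 mitotic genes stood at 1.09 and 1.52 on the WT and KO HFD arrays of experiment 1 and at 1.58 on the KO HFD array of experiment 2, and between -0.57 and -0.05 on the other HFD arrays. The leukocyte and macrophage markers tested in muscle (8 of 12 listed) stood at 2.72, 3.55 and 0.41 on those 3 arrays, and at 1.66 on the WT HFD array of experiment 3, where the mitotic genes stood at -0.05. The 8 fibroblast markers stood at 1.85, 1.85 and 0.69, the 6 satellite cell markers at 1.77, 1.88 and -0.80, the 8 muscle fibre markers at 1.78, 1.79 and -0.34, and the 5 adipocyte markers at 0.95, 1.1 and -0.30. The 4 erythroid markers stood at 0.02, 0.75 and 0.72 on the same 3 arrays. On the WT and KO chow arrays of experiment 1, where the mitotic genes stood at -0.97 and -0.77, the fibroblast markers stood at 0.60 and 0.92, the muscle fibre markers at 1.05 and 1.11 and the satellite cell markers at 0.89 and 1.15. On these chow arrays the erythroid markers stood at 0.51 and 0.38, the leukocyte and macrophage markers at 0.68 and 0.55 and the adipocyte markers at -0.12 and 2.34. The latter was the highest adipocyte value in muscle. The 12 endothelial markers stayed between -0.16 and 0.20 on every muscle array. Summed leukocyte and macrophage signal in muscle ranged from 1.02 to 2.12 on WT chow, 1.26 to 3.10 on WT HFD, 1.08 to 1.93 on KO chow and 0.79 to 4.22 on KO HFD, and no listed marker with a probe was below background on every array. The 8 fibroblast markers summed to 5.02 to 6.84, 5.29 to 7.83, 4.71 to 7.17 and 5.57 to 7.86 in the same order. Their part in the mitotic values was not tested. The 9 replication genes did not follow, with median deviations between -0.21 and 0.15 on the 12 muscle arrays.

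**Figure D4:**
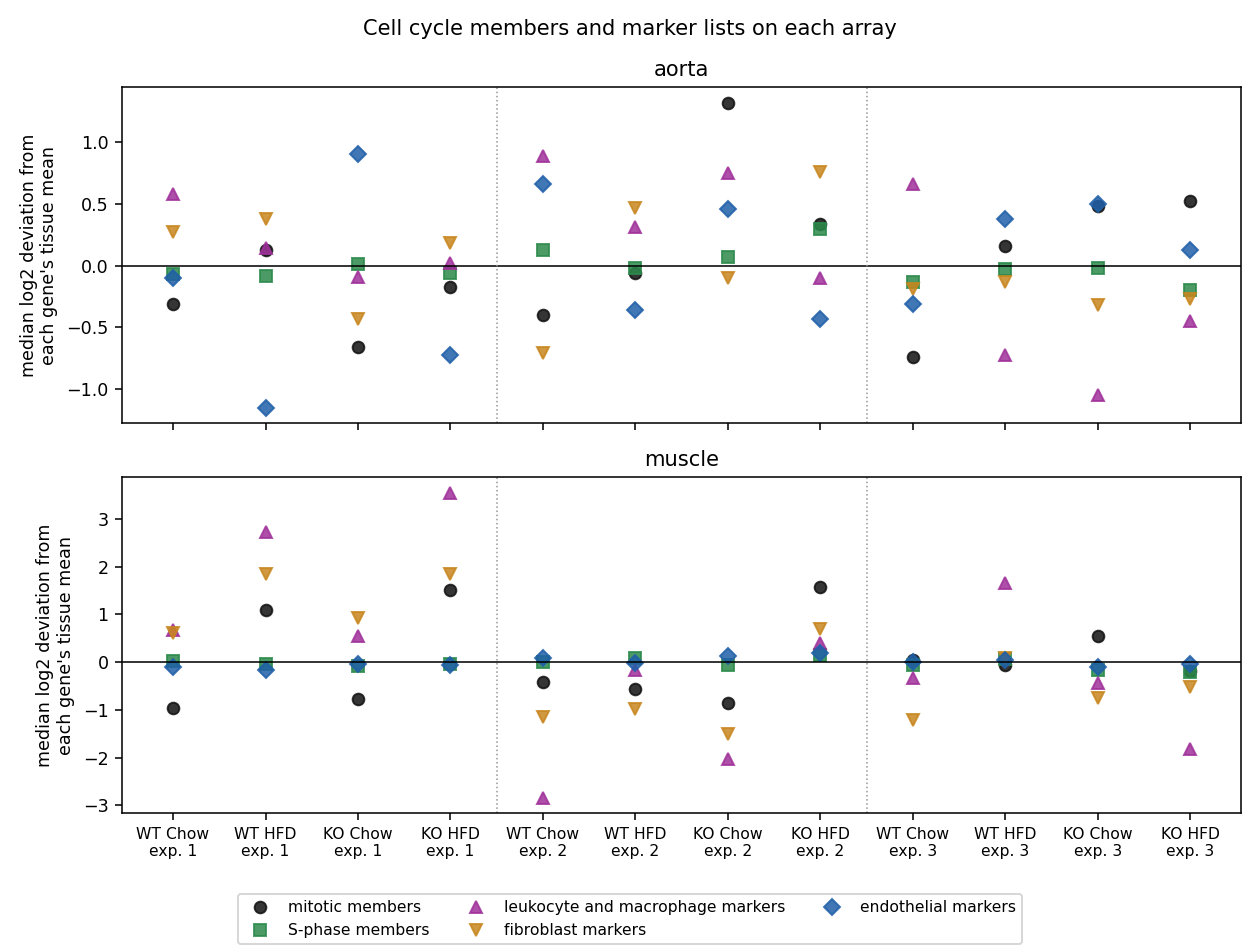
Median log2 deviation from each gene's mean over the 12 arrays of its tissue, for the 15 mitotic genes, the 9 replication genes (labelled S-phase members) and 3 marker lists, on each array in order of experiment. In muscle the mitotic genes reach 1.09, 1.52 and 1.58 on 3 HFD arrays, on which leukocyte and fibroblast markers are also above 0, while endothelial markers stay between -0.16 and 0.20.

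In WT aorta the fitted change on HFD had a median of 0.51 for the mitotic kinases and cyclins. It was 0.97 for the chromosome, spindle and checkpoint genes, beside 0.03 for all probes. The pairs of a gene did not always share a sign. Cdk1 read 1.27, -0.30 and -0.10, Cdc20 -0.29, -0.20 and 1.18, and Cenpe 0.16, -0.25 and 3.00. Aurkb, Top2a and Bub1b were above 0 in 3 of 3 WT pairs. Tpx2 read -2.86, -3.89 and -3.65 on WT chow and -1.60, -1.63 and -1.54 on WT HFD, groups that did not overlap, and the difference was 1.88 ± 0.438 (3.67-fold, adjusted p 0.479). Birc5 read 0.27, -0.52 and -0.53 on chow and 1.39, 0.92 and 0.92 on HFD, again without overlap, at 1.33 ± 0.326 (2.52-fold, adjusted p 0.506). Both genes were taken by their p, and the share of all probes without such overlap was not counted. Mki67 was higher in 3 of 3 WT pairs, with -0.88, -2.09 and -0.90 on chow and 0.08, -0.68 and 0.12 on HFD, at 1.13 ± 0.436 (adjusted p 0.831).

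In KO aorta the 2 mitotic medians were -0.03 and -0.15, in the same order. Mki67 read -1.49, 1.12 and -0.01 on KO chow and -0.47, -0.02 and 0.62 on KO HFD, and its mean difference of 0.18 combined -1.13 in experiment 2 with 1.02 and 0.64 in the others. Tpx2 read -3.50, -1.43 and -0.81 on KO chow and -2.08, -1.78 and -1.29 on KO HFD, so 2 of 3 KO chow arrays stood above all WT HFD arrays. Ccne2, cyclin E2, read -3.88, -2.96 and -3.71 on KO chow and -3.98, -5.03 and -5.14 on KO HFD, at -1.20 ± 0.484 (adjusted p 0.437). Among the marker lists in aorta, the adipocyte markers had the largest median difference between the diets, -3.51 over both genotypes (-3.47 in WT and -3.54 in KO), with 5 of 5 below 0, 4 at an unadjusted p under 0.05 and 0 called. As a median deviation from each gene's mean they stood between 0.88 and 3.81 on the 6 chow arrays and between -2.64 and -1.22 on the 6 HFD arrays, without overlap. Their summed signal, which includes the abundant Fabp4, ranged from 6.90 to 7.25 on WT chow, 6.5 to 6.58 on WT HFD, 7.01 to 8.11 on KO chow and 6.18 to 7.10 on KO HFD, and Lep was above background on 0 arrays. The endothelial markers had 12 of 12 differences below 0 (median -0.65, 0 called) and the fibroblast markers 8 of 8 above 0 (median 0.65, 0 called). Summed endothelial signal in aorta ranged from 7.67 to 8.64 on WT chow, 7.15 to 8.28 on WT HFD, 8.29 to 8.84 on KO chow and 7.26 to 8.14 on KO HFD. Their part in these values was not tested.

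The difference between the diet responses of KO and WT was itself tested. In aorta 0 of 38 genes passed (0% of probes), and 3 had an unadjusted p under 0.05, beside 2.61% of probes: Birc5 at -1.56 ± 0.461, Tpx2 at -1.68 ± 0.620 and Aurka at -1.40 ± 0.572, each with an adjusted p of 1. The median fitted difference of the 38 genes was -0.3, beside -0.02 for all probes, and the SD of that median between experiments was 0.31. The fitted difference was below 0 for 12 of 12 endothelial markers (median -0.5) and 4 of 4 erythroid markers (-1.54). By contrast, 7 of 9 leukocyte and macrophage markers and 5 of 8 fibroblast markers were above 0. The part of these markers in the values was not tested. In muscle 0 of 39 genes passed (0%), and 1 had an unadjusted p under 0.05, beside 4.12% of probes, Ccne2 at 1.91 ± 0.645 (adjusted p 0.999). The methods' t-test gave 1 gene in each tissue at an unadjusted p under 0.05, beside 2.17% of probes in aorta and 3.65% in muscle, and 0 after adjustment. The diet response of aorta minus that of muscle passed for 0 of 39 genes (0%), and 1 had an unadjusted p under 0.05, beside 9.25% of probes, Cdk1 at -1.92 ± 0.825 (adjusted p 0.511).

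KO and WT were also compared within each diet. On chow in aorta 0 of 38 genes passed (0.0116% of probes), and 6 had an unadjusted p under 0.05, beside 4.41% of probes. All 6 were higher in KO: Ccnb1 (cyclin B1) at 3.23 ± 1.07, Top2a at 1.86 ± 0.727, Tpx2 at 1.55 ± 0.586, Birc5 at 1.49 ± 0.529, Cdc20, the activator of the anaphase-promoting complex, at 1.07 ± 0.457, and Mcm5 at 0.94 ± 0.369, with adjusted p from 0.854 to 1. Ccnb1 read -2.45, -7.02 and -4.18 on WT chow, that of experiment 2 below background, and -3.0, -0.02 and -0.93 on KO chow. Its KO array was higher in experiments 2 and 3, by 7.0 and 3.26, and not in experiment 1 (-0.56). Birc5 and Tpx2 had the same pattern, with -0.10 and -0.64 in experiment 1, and Top2a, Cdc20 and Mcm5 were higher in 3 of 3 experiments. The number of genes at an unadjusted p under 0.05 was 10 without experiment 1, 1 without experiment 2 and 0 without experiment 3. The shares of all probes were 3.93%, 6.65% and 3.7% in that order.

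On chow in aorta the fitted KO minus WT difference had a median of 0.85 for the mitotic kinases and cyclins. It was 1.24 for the chromosome, spindle and checkpoint genes, beside 0.03 for all probes. On HFD these medians were 0.20 and 0.02. In the same chow comparison 12 of 12 endothelial markers (median 0.46), 5 of 5 adipocyte markers (0.52) and 4 of 4 erythroid markers (0.90) were above 0, 7 of 9 leukocyte and macrophage markers were below 0 (median -0.42), and 0 of these were called. Their part in the mitotic values was not tested here either. The WT chow arrays enter both this comparison and the diet comparison of WT aorta, so the values are not independent of each other. On HFD in aorta 0 of 38 genes passed (0.00387%), and 1 had an unadjusted p under 0.05, beside 1.15% of probes, Ccne2 at -1.06 ± 0.473 (adjusted p 1). On chow in muscle 0 of 39 passed (0%) and 0 had an unadjusted p under 0.05, beside 2.42% of probes. On HFD in muscle 0 of 39 passed (0%) and 1 did so unadjusted, beside 3.15% of probes, Cdkn1c at 0.47 ± 0.207 (adjusted p 1), higher in KO in 3 of 3 experiments.

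The other pathway lists gave 0 calls by limma in the diet comparisons. Of the G2/M genes, 7 of 33 in WT aorta, 1 of 33 in KO aorta, 4 of 32 in WT muscle and 7 of 32 in KO muscle were higher on HFD at an unadjusted p under 0.05, beside 3.09%, 6.25%, 5.32% and 3.72% of all probes, and 0 were lower in each, beside 2.68%, 5.02%, 6.74% and 4.77%. Their median change was 0.56, -0.11, 0.29 and 0.43 in that order, beside 0.03, -0.01, -0.02 and 0.0049 for all probes. The S-phase genes had medians of 0.02, -0.12, -0.02 and 0.12, the pocket protein and E2F genes -0.34, -0.03, 0.18 and -0.12, and the p53 targets -0.18, -0.16, -0.07 and -0.15. Over both genotypes the p53 targets ran from -1.74 to 0.63 in aorta (median -0.21), and Cdkn1a, at -1.07, lay within that range. In muscle they ran from -0.53 to 0.78 (median -0.15), and Cdkn1a was at -0.63.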

How the data were processed

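Per the file headers, the processed intensity of each spot was made by Agilent Feature Extraction, which subtracted background and detrended each array. The authors also deposited a log2 table scaled within each tissue, used here as an alternative. Signals of 43379 non-control spots were divided by the 75th percentile of their array (2390 to 5938), log2 transformed and averaged over the spots of each of 41174 probes, without outlier spots. Probes were named by accession through the GRCm38.p6 gene table (27198 matched). Probes were above background when at least 0.5 of their spots were, and tested when so on every array of 1 group: 25865 in aorta, 25682 in muscle, 27387 over both. limma 3.58.1 in R 4.3.3 was fitted per tissue, the diet comparisons with the genotype and experiment pair as a block, since the labels number the experiments (deviations within pairs correlated at 0.01 to 0.46). KO against WT and aorta against muscle used group means. The paired diet fit of WT aorta was checked on simulated data, and the other fits, aorta against muscle among them, were not. The number of arrays limits the precision. The p-values of the diet comparisons measure the spread of HFD minus chow differences between pairs, and the others the spread between arrays of a group. The main fit of aorta against muscle took both tissues of a pool as independent, although they share mice. Values by array were given for the 3 smallest p of each comparison of HFD with chow, Mki67 and Cdkn1a. For the 8 largest called differences between tissues, the range and median in each tissue were given. Members, lists, tests and rules were chosen with earlier results of these data known.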

Additional observations from a re-analysis of the deposited data

How the results depend on the processing

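Alternatives were normexp correction, quantile normalization, the deposited log2 table (within a tissue only, so it was not run between tissues), other filters on dim probes, any probe of a gene, other blocks, the methods' t-test and leaving out each experiment. The 0 calls of the diet and genotype comparisons were unchanged under them, except that diet in muscle over both genotypes gave 1 called gene with normexp correction (Ccnd2), 2 with only probes above background on every array and 2 with the slide as a block in place of the pair (Ccnd2 and Cdkn2b in both). These 3 alternatives called 0.864%, 1.17% and 1.07% of all probes. Without the replicate block the diet comparisons gave 0 calls among the genes. Aorta against muscle gave 21 called genes, and 20 with the pool of mice as a replicate block. Of these 18 were shared, Mki67, Birc5 and Top2a were lost, and Tyms and Bub1 were gained. The comparison gave 12 without experiment 1, 8 without experiment 2 and 14 without experiment 3, beside 32%, 31.2% and 35.6% of all probes. With alternatives chosen after the data were seen it gave 8 (slide as a random block), 13 (chow groups alone) and 0 (endothelial marker mean as a covariate, where Cdk6 turned to 0.14). Mki67 in KO aorta turned from 0.18 to -0.25 without experiment 1 and to -0.05 without experiment 3, and was 0.83 without experiment 2. The cause of these changes was not tested. Between tissues 9 calls were lost without experiment 1 (Cdk6, Ccnd2, Cdkn1b, Cdkn2c, Mcm2, Mcm3, Mcm6, Pcna and Birc5, adjusted p from 0.0533 for Cdk6 to 0.146 for Cdkn2c). Without experiment 2, 13 were lost (Mki67, Ccnd2, Cdkn1b, Cdkn2c, Ccna2, Mcm2, Mcm3, Pcna, Ccnb2, Aurkb, Top2a, Birc5 and Tpx2, from 0.0695 for Ccna2 to 0.393 for Top2a). Without experiment 3, 7 were lost (Mki67, Ccnd2, Cdkn1b, Mcm3, Top2a, Birc5 and Tpx2, from 0.0546 for Birc5 to 0.232 for Mki67). For diet in muscle over both genotypes, 3, 5 and 18 of 39 genes had an unadjusted p under 0.05 without experiments 1, 2 and 3. The shares of all probes were 11.2%, 10.6% and 14.9% in that order. Signals near background limit Cdk6 in aorta and Aurkb, Cdk1 and Top2a in muscle.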
